A study of Solanum lycopersicum with 18 samples.

Results

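The comparison described here set MeJA-primed seeds of the tomato genotype Criollo against MeJA-primed seeds of Micro-Tom, with 3 biological replicates of each. These 6 libraries were taken by their labels from the 18 libraries of the series, which also holds mock-primed seeds of both genotypes and the genotype Stupicke. Criollo is a small-fruit cultivar, and Micro-Tom is the dwarf tomato line used as a laboratory reference. Every replicate was a dish of 30 mature seeds osmoprimed for 48 h in the dark in polyethylene glycol at −1 MPa with 2 mM methyl jasmonate (MeJA), then washed and re-dried for 48 h before RNA extraction. The mock-primed seeds received the same treatment without MeJA. RNA was taken from the seed lot that also gave the exudates, so genotype and the lot of seeds harvested from it cannot be told apart.

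Jasmonates are plant hormones made from membrane fatty acids by lipoxygenases and allene oxide cyclase, and they accumulate after wounding and attack by chewing insects or necrotrophic fungi. In the absence of the active hormone, JAZ proteins of the TIFY family bind and repress MYC transcription factors. The hormone triggers degradation of the JAZ proteins, MYC factors then activate defence genes, and JAZ genes are themselves among the targets, so that their transcripts are widely read as a mark of jasmonate signalling. Dry seeds also hold transcripts of late embryogenesis abundant (LEA) proteins, oil body proteins, storage proteins and chaperones stored during maturation.

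The Criollo libraries held 20195782, 19983096 and 20406693 counts, and the Micro-Tom libraries 19175188, 18807931 and 19037438. Levels are given as TPM, the authors' normalised transcript abundance, which corrects for transcript length and library depth. Log2 fold changes are Criollo over Micro-Tom, with their standard error (SE), estimated in edgeR by quasi-likelihood from the counts. A gene is called when its p-value, adjusted by Benjamini-Hochberg over all 18742 genes tested, was below 0.05, and every adjusted p below is from that test unless stated. With 3 replicates a group, log CPM values correlated at 0.987 to 0.992 between Criollo libraries and at 0.986 to 0.992 between Micro-Tom libraries, against 0.935 to 0.948 between the genotypes. The biological coefficient of variation was 0.139 within Criollo and 0.142 within Micro-Tom.

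Of the 18742 genes, 4253 were higher and 4491 lower in Criollo, which is 22.7% and 24% of those tested and 46.7% together. The median called difference was 0.78 on the log2 scale, and 3186 called genes differed by at least 2-fold. Called genes were spread over all chromosomes, from 44.5% of the tested genes of chromosome 4 to 51.9% of those of chromosome 8. In 367 windows of 50 neighbouring tested genes the share called lay between 26% and 70%, with a median of 46%. The share called was 43.9% among genes under 1 TPM and 61.4% in the class of highest level, 114 genes. With so large a share called, a gene list is read below against these shares. Functional annotation was taken from the study's supplementary text, and all lists were drawn from genes annotated there. The study's tables hold, among others, MeJA-responsive genes and exudate proteins, chosen in part on these libraries. The lists are therefore not whole gene families. Of the 2576 tested genes with such an annotation, 24.4% were higher and 30.8% lower in Criollo, with a median log2 fold change of -0.05.

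A difference in effective transcript length, the ratio of counts to TPM, ran with the genotype. Relative to the mean of all libraries, the shortest eighth of transcripts had 0.901 to 0.949 times the effective length of the longest eighth in Criollo, against 1.14 to 1.19 times in Micro-Tom. In the count test 31.3% of the shortest eighth was lower in Criollo, and 13.4% of the longest. With the effective length as an offset these shares were 23.4% and 18.8%, and 4304 genes were higher and 4365 lower. Where the offset ended the call of a named gene, this is said beside it.

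**Figure D1:**
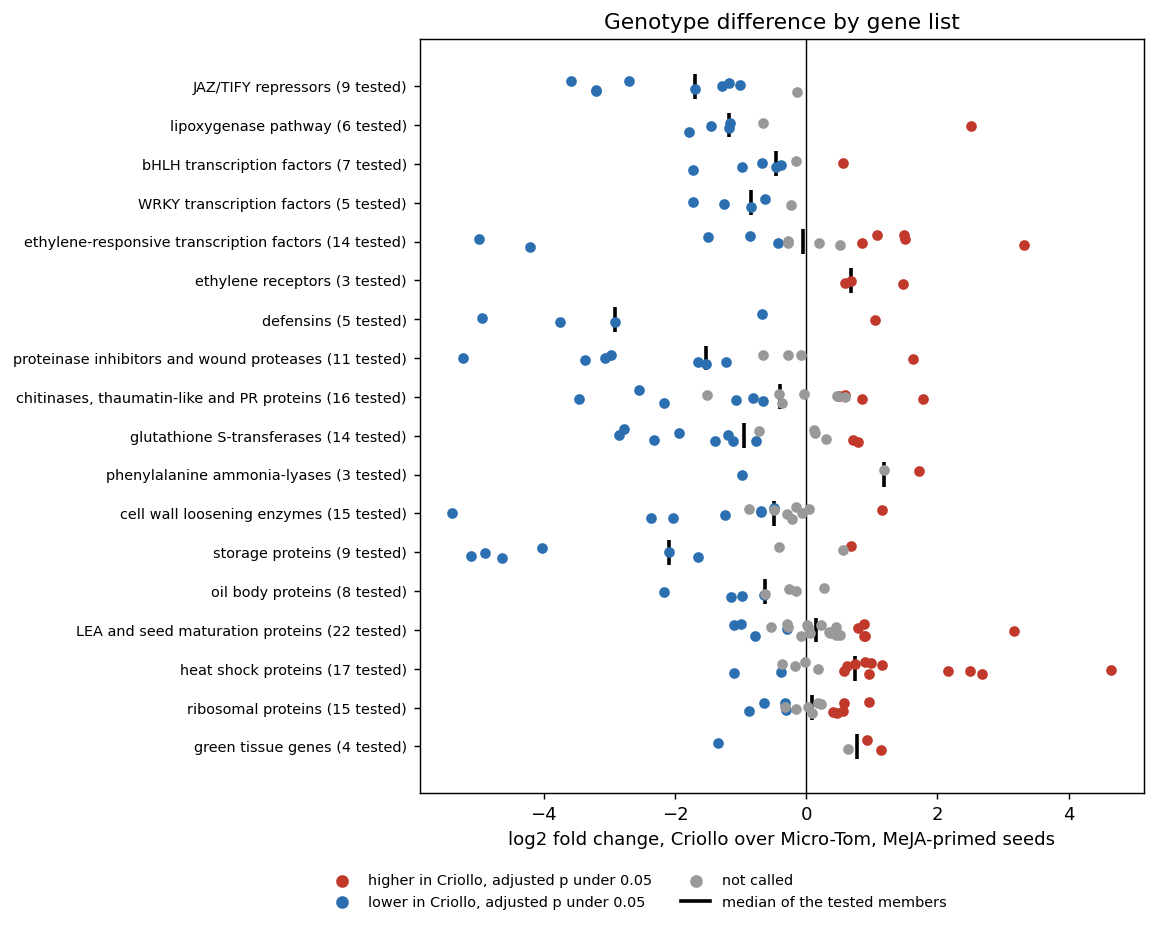
Log2 fold change, Criollo over Micro-Tom in MeJA-primed seeds, of every tested member of 18 gene lists. Red points are called higher in Criollo, blue points called lower, grey points are not called, and black bars are medians of the tested members. JAZ/TIFY repressors, defensins and storage proteins lie mainly on the negative side, and heat shock proteins and ethylene receptors mainly on the positive side.

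Jasmonate signalling genes were lower in Criollo although both genotypes had received the same MeJA. Of 9 JAZ/TIFY repressor genes tested, 8 were lower in Criollo and none higher, with a median log2 fold change of -1.69. The study had selected this list among genes induced by MeJA in these libraries, so it is no independent sample of genes. The summed level of the 9 genes was 586, 627 and 542 TPM in Criollo, against 1578, 1581 and 1522 TPM in Micro-Tom. The groups did not overlap, as for 56.6% of all tested genes in CPM, and the count of 8 was the same with each of the 6 libraries left out.

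JAZ3 (Solyc07g042170) was the most abundant of them. It had 310.5, 333 and 319 TPM in Criollo and 777, 748 and 766 TPM in Micro-Tom. Its log2 fold change was -1.28 (SE 0.09, edgeR adjusted p = 2.3e-05). JAZ2 (Solyc01g005440) had 86.5, 89.2 and 58.6 TPM in Criollo and 147, 172 and 167 TPM in Micro-Tom, a log2 fold change of -1.01 (SE 0.16, edgeR adjusted p = 0.0013). In both genes all Criollo samples lay below all Micro-Tom samples, where 56.6% of all tested genes had groups that did not overlap in CPM.

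In MeJA-primed seeds the gaps of JAZ1 and a JAZf gene, both near 0 in mock-primed seeds, were wider than those of JAZ3 and JAZ2. No gene of the list was called in the interaction test given below. JAZ1 (Solyc12g009220) had 9.99, 23.2 and 17.8 TPM in Criollo, against 189, 142 and 98.6 TPM in Micro-Tom, with a log2 fold change of -3.20 (SE 0.32, edgeR adjusted p = 0.00011). The JAZf gene (Solyc08g036660) had 3.74, 4.36 and 2.23 TPM in Criollo and 42.1, 45.97 and 40.5 TPM in Micro-Tom. At -3.59 (SE 0.23, edgeR adjusted p = 1.2e-05) the log2 fold change was the most negative of the list. In mock-primed seeds JAZ1 was at 0.121, 0 and 0.354 TPM in Criollo and at 0.758, 1.02 and 0.266 TPM in Micro-Tom. At these levels it was left out of the test there. The TIFY-list gene annotated as Pto-responsive gene 1 (Solyc11g011030) was the member not called, at 2.42, 1.82 and 2.62 TPM in Criollo and 1.78, 2.85 and 2.27 TPM in Micro-Tom.

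Genes of the lipoxygenase pathway, only part of which makes jasmonate, were mostly lower as well. Of 6 lipoxygenase pathway genes, 4 were lower and 1 higher in Criollo, with a median log2 fold change of -1.17. Allene oxide cyclase (Solyc02g085730), which forms the ring of the jasmonate precursor, had 114, 126 and 119 TPM in Criollo and 373, 420.1 and 355 TPM in Micro-Tom. The log2 fold change was -1.79 (SE 0.10, edgeR adjusted p = 5.9e-06). Lipoxygenase D (Solyc03g122340), a lipoxygenase of the jasmonate branch in tomato, had 52.8, 65.2 and 40.9 TPM in Criollo and 186, 149 and 138 TPM in Micro-Tom, a log2 fold change of -1.45 (SE 0.18). The cytochrome P450 CYP74C3 gene (Solyc10g007960), of the family that metabolises lipoxygenase products, had 309.8, 267 and 325 TPM in Criollo and 567, 684 and 615 TPM in Micro-Tom, with a log2 fold change of -1.18 (SE 0.10). A weakly expressed lipoxygenase (Solyc01g099150) went the other way, with 1.84, 1.19 and 1.93 TPM in Criollo and 0.371, 0.319 and 0.237 TPM in Micro-Tom (log2 fold change 2.51, SE 0.28).

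**Figure D2:**
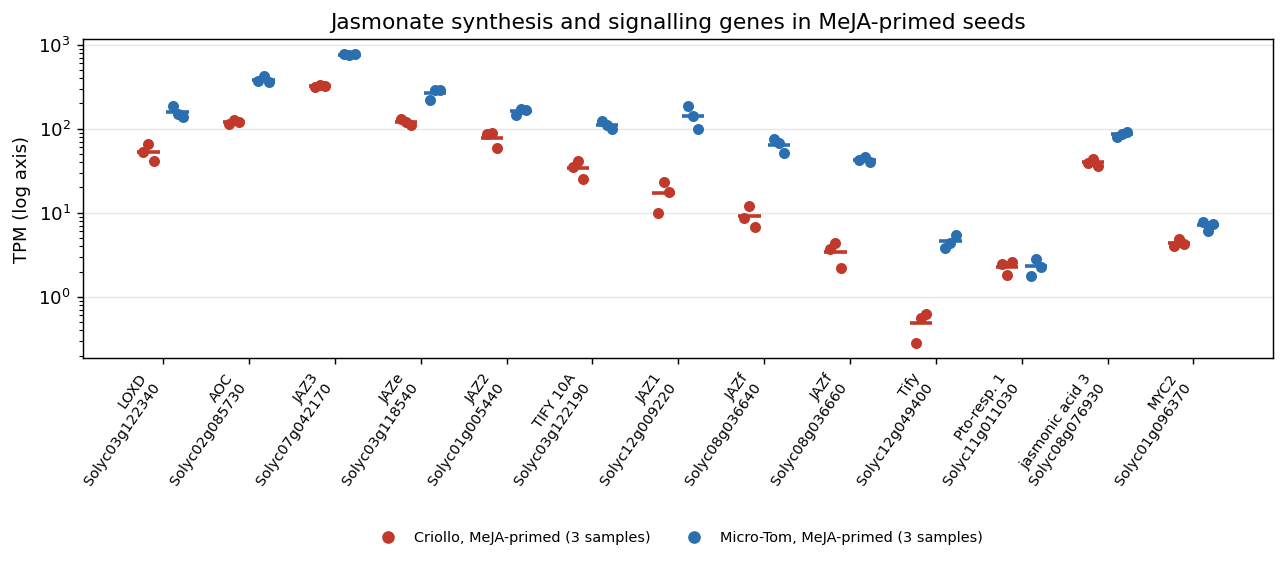
TPM on a log axis of 13 genes of jasmonate synthesis and signalling in each MeJA-primed sample, with Criollo in red left of Micro-Tom in blue and bars at group means. All 3 Criollo samples lie below all 3 Micro-Tom samples in every gene drawn except Pto-responsive gene 1, where the groups overlap. Not drawn are the lipoxygenase Solyc01g099150 and the bHLH gene Solyc01g086870, both called higher in Criollo, and the other MYC2 gene (Solyc08g005050), not called.

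Among 7 bHLH transcription factors, like the WRKY genes below a list the study had chosen on these libraries, 5 were lower and 1 higher in Criollo, with a median log2 fold change of -0.46. The gene annotated as Transcription factor bHLH13 (Solyc01g096050) had 8.93, 8.57 and 7.22 TPM in Criollo and 27.9, 30.5 and 31.98 TPM in Micro-Tom (log2 fold change -1.72, SE 0.12). The first MYC2 gene (Solyc01g096370) was lower at 4.05, 4.84 and 4.20 TPM in Criollo, against 7.80, 6.104 and 7.37 TPM in Micro-Tom (log2 fold change -0.67, SE 0.17, edgeR adjusted p = 0.011). The other MYC2 gene (Solyc08g005050) was not called, with a log2 fold change of -0.16 (SE 0.22). bHLH transcription factor 076 (Solyc01g086870) was higher, at 51.9, 70.3 and 55.3 TPM in Criollo and 49.7, 41.9 and 34.2 TPM in Micro-Tom (log2 fold change 0.56, SE 0.16), a call lost without Criollo replicate 2 or Micro-Tom replicate 2 or 3. bHLH transcription factor138 (Solyc06g083980), outside that list, was higher too, with a log2 fold change of 0.76 (SE 0.11). The study had listed this gene, on these libraries among others, as raised by MeJA in Criollo and Stupicke but not in Micro-Tom. Its higher level is therefore no independent evidence.

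Of 5 WRKY genes, transcription factors of stress responses, 4 were lower in Criollo and WRKY37 (Solyc01g079360, log2 fold change -0.24, SE 0.16) was not called. WRKY75 (Solyc05g015850) had 2.03, 0.887 and 1.89 TPM in Criollo and 8.01, 4.58 and 2.115 TPM in Micro-Tom (log2 fold change -1.73, SE 0.52). WRKY39 (Solyc03g116890) had 15.1, 18.6 and 11.2 TPM in Criollo and 37.8, 28.5 and 14.8 TPM in Micro-Tom, groups that overlap, and its adjusted p was 0.048 in edgeR and 0.056 with the length offset. WRKY16 (Solyc02g032950) and WRKY78 (Solyc07g055280) had log2 fold changes of -1.25 (SE 0.31) and -0.62 (SE 0.16). The calls of WRKY75 and WRKY39 were weak, and that of WRKY78 was lost without Criollo replicate 1, whereas WRKY16 kept its call under all 17 alternatives. Of the lower WRKY calls, 2 were left without Criollo replicate 1, Micro-Tom replicate 1 or Micro-Tom replicate 2.

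Taking all 284 tested genes that the study had called induced by MeJA in every genotype, 135 were lower in Criollo, 52 higher and 97 not called. The lower and higher shares are 47.5% and 18.3%, against 24% and 22.7% of all genes and 30.8% and 24.4% of annotated genes. The median log2 fold change was -0.37. The list was chosen on libraries that include these 6, so the counts describe it and are no independent evidence.

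Genes for small antimicrobial proteins were mostly lower in Criollo. Of 5 defensin genes, which encode small cysteine-rich antifungal peptides, 4 were lower and 1 higher, with a median log2 fold change of -2.92. The defensin SlPDF2.3 (Solyc07g007755), which the study had made as a peptide, had 5.67, 3.51 and 4.85 TPM in Criollo, against 109, 86.2 and 53.2 TPM in Micro-Tom. The log2 fold change was -3.76 (SE 0.27, edgeR adjusted p = 2.1e-05). Its neighbour in the gene numbering, Solyc07g007710, was the most abundant defensin, with 158, 239.5 and 190.3 TPM in Criollo and 1197, 1158 and 987 TPM in Micro-Tom (log2 fold change -2.92, SE 0.20). Within this cluster of genes Solyc07g007750 was higher in Criollo, at 4.40, 4.71 and 4.46 TPM, against 3.59, 1.49 and 1.64 TPM in Micro-Tom. The call was narrow, at a log2 fold change of 1.05 (SE 0.36, edgeR adjusted p = 0.039), and was lost without any single library other than Micro-Tom replicate 1.

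The remaining defensins had smaller or scarcer signals. Solyc04g072470 had 124, 211 and 191 TPM in Criollo and 353, 275 and 269 TPM in Micro-Tom, with a log2 fold change of -0.67 (SE 0.22, edgeR adjusted p = 0.032), a call lost without Criollo replicate 1 or 3 or Micro-Tom replicate 1. Solyc07g006380 was near the detection limit in Criollo, at 0.339, 0.362 and 0 TPM, against 8.18, 8.37 and 4.07 TPM in Micro-Tom, and it had no reads in any mock-primed library of either genotype. Defensin genes are close relatives, and reads shared between copies may have been divided among them by the quantification.

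Proteinase inhibitors, which block the digestive enzymes of attackers, and wound-induced proteases followed the same direction. Of 11 genes, 7 were lower and 1 higher in Criollo, with a median of -1.52, against 24% lower and 22.7% higher of all genes tested. Like the defensin list, this list was drawn from the study's tables, chosen in part on these libraries. Its counts are therefore no independent evidence. The most negative was the wound-inducible carboxypeptidase gene (Solyc06g083040), with 0.0349, 0.141 and 0.102 TPM in Criollo and 3.68, 5.33 and 2.38 TPM in Micro-Tom (log2 fold change -5.23, SE 0.46). The cysteine proteinase inhibitor Solyc12g098607 was the most abundant, with 93.7, 168 and 94.5 TPM in Criollo and 664, 811 and 938 TPM in Micro-Tom (log2 fold change -2.97, SE 0.25). Proteinase inhibitor II (Solyc03g020050) had 118, 99.5 and 126 TPM in Criollo and 306, 275 and 154 TPM in Micro-Tom (log2 fold change -1.23, SE 0.21). Its transcripts were at or below 0.252 TPM in all mock-primed samples of the 2 genotypes. The single higher member, a metallocarboxypeptidase inhibitor (Solyc07g007250), had overlapping groups, and its adjusted p was 0.041 in edgeR and 0.070 with the length offset. The call was also lost without Criollo replicate 1 or 2 or Micro-Tom replicate 2 or 3.

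Threonine deaminase (Solyc09g008670), an enzyme that in tomato leaves degrades threonine in the insect gut, was at 0.636, 2.91 and 0.402 TPM in Criollo and at 34.1, 47.7 and 49.9 TPM in Micro-Tom. The log2 fold change was -5.02 (SE 0.52, edgeR adjusted p = 0.00013). Polyphenol oxidases, which oxidise phenolics in wounded tissue, were weakly expressed and split. Solyc08g074620 was higher at 5.69, 5.47 and 3.14 TPM in Criollo, against 2.09, 2.71 and 2.52 TPM in Micro-Tom. Solyc08g074630 was lower at 0.0329, 0.132 and 0.0955 TPM in Criollo, against 1.03, 2.46 and 0.720 TPM in Micro-Tom, and Solyc08g074683 was not called (log2 fold change 0.36, SE 0.44).

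Pathogenesis-related proteins moved both ways. Of 16 chitinase, thaumatin-like and PR genes, 6 were lower and 4 higher in Criollo, with a median of -0.40. Leaving out Micro-Tom replicate 1 gave 6 higher and a median of 0.16, and leaving out either of the other Micro-Tom libraries or Criollo replicate 1 or 3 gave 2 higher. Osmotin (Solyc11g066130), an antifungal thaumatin-like protein, had 129, 105 and 86.7 TPM in Criollo and 433, 555 and 536 TPM in Micro-Tom (log2 fold change -2.55, SE 0.16). The STH-2-like gene Solyc09g090970 had 3175, 4239 and 4594 TPM in Criollo and 6713, 6547 and 6008 TPM in Micro-Tom (log2 fold change -0.82, SE 0.15). On the higher side, the PR-5-like gene Solyc08g080670 had 125, 70.4 and 203 TPM in Criollo and 36.1, 43.5 and 30.2 TPM in Micro-Tom (log2 fold change 1.78, SE 0.32). The called chitinase genes differed among themselves, from -3.47 (SE 0.86) for the acidic 27 kD chitinase Solyc02g082930 to 0.50 (SE 0.16) for Solyc10g055810, whose higher call was lost without Criollo replicate 1 or 3 or Micro-Tom replicate 2 or 3.

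**Figure D3:**
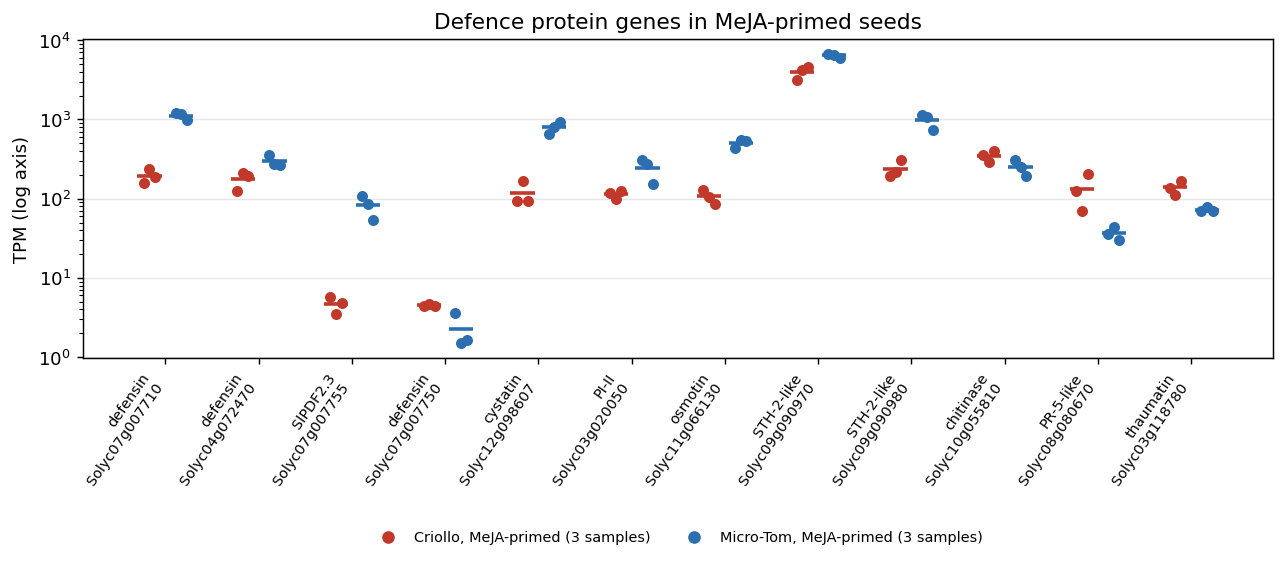
TPM on a log axis of 12 defence protein genes in each MeJA-primed sample, with Criollo in red left of Micro-Tom in blue and bars at group means. Defensin Solyc07g007755 (SlPDF2.3) lies at 3.51 to 5.67 TPM in Criollo and 53.2 to 109 TPM in Micro-Tom, whereas the PR-5-like gene lies higher in Criollo.

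Detoxifying enzymes were lower more often than higher. Of 14 tested glutathione S-transferases, which conjugate toxic compounds to glutathione, 8 were lower and 2 higher in Criollo, with a median of -0.94. Members numbered close together on chromosome 7 had the lowest values. Solyc07g056480 had 157, 221 and 117 TPM in Criollo and 947, 769.7 and 813 TPM in Micro-Tom (log2 fold change -2.32, SE 0.23). Solyc07g056500 had 19.8, 21.2 and 20.0 TPM in Criollo and 133, 128 and 134 TPM in Micro-Tom (log2 fold change -2.78, SE 0.11). Solyc07g056470 had a log2 fold change of -2.85 (SE 0.18). The higher call of Solyc06g009040, at 0.79 (SE 0.27, edgeR adjusted p = 0.040), was lost when any single library was left out.

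Non-specific lipid-transfer proteins, small secreted lipid binders, gave 1 of the largest changes in absolute level. Solyc01g090360 had 1867, 2803 and 2141 TPM in Criollo and 9479.8, 9135 and 9607 TPM in Micro-Tom (log2 fold change -2.35, SE 0.19). Its neighbour Solyc01g090350 was not called, at 12319, 13791 and 14163 TPM in Criollo and 14859, 10780.3 and 9608 TPM in Micro-Tom. Solyc01g105010 was lower, with a log2 fold change of -1.06 (SE 0.12).

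The ethylene receptor genes and EIN3-binding F-box protein 1 were higher in Criollo, while ethylene-responsive transcription factors went both ways. Ethylene is a gaseous hormone that acts with jasmonate in defence, its receptors repress signalling until they bind it, and EIN3-binding F-box proteins mark the EIN3 transcription factor for degradation. All 3 ethylene receptor genes listed were higher. ETR4 (Solyc06g053710) had 30.9, 35.6 and 37.1 TPM in Criollo and 15.3, 13.99 and 10.99 TPM in Micro-Tom (log2 fold change 1.48, SE 0.13, edgeR adjusted p = 4.9e-05). ETR5 (Solyc11g006180) had 18.9, 19.6 and 18.0 TPM in Criollo and 12.6, 13.4 and 13.996 TPM in Micro-Tom (log2 fold change 0.59, SE 0.10). The receptor Solyc05g055070 had 21.1, 19.9 and 19.6 TPM in Criollo and 14.1, 14.02 and 12.2 TPM in Micro-Tom (log2 fold change 0.68, SE 0.09). No receptor's groups overlapped, which also held for 56.6% of all tested genes in CPM. EIN3-binding F-box protein 1 (Solyc12g009560) had 281, 307 and 237 TPM in Criollo and 45.99, 60.8 and 49.5 TPM in Micro-Tom, a log2 fold change of 2.49 (SE 0.15, edgeR adjusted p = 8.1e-06). The study had listed ETR4 and this F-box gene as raised by MeJA in Criollo and Stupicke but not in Micro-Tom. That choice used libraries that include the MeJA-primed ones compared here, so these values are no independent evidence.

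The ethylene-responsive transcription factors, gathered by keyword after the data were seen as were the glutathione S-transferases, lipid-transfer proteins and auxin response factors, spread widely, with 5 of 14 tested genes higher and 5 lower. Solyc02g090790 had 23.8, 37.7 and 17.93 TPM in Criollo and 2.75, 2.45 and 1.99 TPM in Micro-Tom (log2 fold change 3.32, SE 0.34). Solyc12g009240 had 1.102, 1.23 and 0.823 TPM in Criollo and 33.6, 24.3 and 33.0 TPM in Micro-Tom (log2 fold change -4.98, SE 0.24). The most abundant, RAP2-type Solyc04g078640, had a log2 fold change of -1.50 (SE 0.11). Auxin response factors had log2 fold changes between -0.28 and 0.63, with 3 of 7 higher and 1 lower. The lower call was lost when any single library was left out, and 1 higher call remained without Criollo replicate 1 or Micro-Tom replicate 2. With the length offset 2 were higher and 3 lower, and Solyc11g069190 lost its higher call (adjusted p 0.054).

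Seed storage protein genes were lower in Criollo. Of 9 tested genes whose proteins the study had detected in exudates, 6 were lower and 1 higher, with a median of -2.09. The summed level of the storage list was 3561, 6431 and 3745 TPM in Criollo, against 16012, 11572 and 13479 TPM in Micro-Tom. The 2S albumin gene Solyc08g080490 had 23.3, 30.0 and 50.1 TPM in Criollo and 1049, 726 and 1025 TPM in Micro-Tom, and its log2 fold change was -4.90 (SE 0.30). The 11S globulin gene Solyc09g072560 had 5.21, 6.76 and 5.28 TPM in Criollo and 322, 149.9 and 204 TPM in Micro-Tom (log2 fold change -5.11, SE 0.32). Vicilin (Solyc09g082340), the most abundant, had 1895, 4191 and 2329 TPM in Criollo and 11883, 7778 and 9064 TPM in Micro-Tom (log2 fold change -1.64, SE 0.31). The 1 higher member, the vicilin-like Solyc02g085590, had overlapping TPM values and an adjusted p of 0.012 in edgeR but 0.18 with the length offset.

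Oil body genes, whose products coat seed lipid droplets, included 4 lower and none higher of 8. Without Criollo replicate 2, 7 were lower, and without any other library 3 or 4. The oleosin Solyc03g112440 had 691, 950.0 and 597 TPM in Criollo and 2143, 2643 and 3342 TPM in Micro-Tom (log2 fold change -2.16, SE 0.22). The oleosin Solyc06g034040 had 2371, 3584 and 2145 TPM in Criollo and 4234, 5261 and 6376 TPM in Micro-Tom (log2 fold change -1.15, SE 0.23). The call of another oleosin, Solyc12g010920, was lost with the length offset (adjusted p 0.034 without the offset and 0.085 with it) and without Criollo replicate 1 or 3 or Micro-Tom replicate 2 or 3. Replicate 2 of Criollo had the highest summed level of the storage, oil body and LEA lists among the Criollo samples.

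LEA and seed maturation genes, whose proteins protect cells during drying, were not shifted as a group. Of 22 genes, 5 were higher and 4 lower in Criollo, with a median of 0.14, and leaving out a library gave 3 to 8 higher (8 without Criollo replicate 3, 3 without Micro-Tom replicate 2) and 1 to 7 lower (7 without Criollo replicate 2, 1 without Criollo replicate 1 or Micro-Tom replicate 3). The 11 kDa LEA gene Solyc10g078770 was the most abundant transcript of the list, at 24577, 33772 and 22671 TPM in Criollo and 26838, 14251 and 20062 TPM in Micro-Tom, and was not called. LEA D-34 (Solyc09g082110) had 194, 349 and 153 TPM in Criollo and 28.4, 25.2 and 29.5 TPM in Micro-Tom (log2 fold change 3.17, SE 0.31). The listed LEA gene Solyc06g048840 had 7480.0, 10682 and 6188 TPM in Criollo and 3822, 3307 and 4736 TPM in Micro-Tom (log2 fold change 0.80, SE 0.23), a call lost without Micro-Tom replicate 2. The AWPM-19-like gene Solyc09g090800 was lower, with a log2 fold change of -1.10 (SE 0.21). A further LEA gene, Solyc09g014750, which the exudate list does not hold, had 10639, 11095 and 10010.1 TPM in Criollo and 3069.8, 5369 and 5918 TPM in Micro-Tom (log2 fold change 0.83, SE 0.18).

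Heat shock proteins, chaperones that keep proteins folded under stress, were higher in Criollo. Of 17 genes, 11 were higher and 2 lower, with a median of 0.74. Their summed level was 5786, 6067 and 5820.5 TPM in Criollo, against 3783, 3898 and 3855 TPM in Micro-Tom. HSC2-like (Solyc09g010630) made up most of that sum, with 4037, 4089 and 4103 TPM in Criollo and 2399, 2382 and 2434 TPM in Micro-Tom (log2 fold change 0.98, SE 0.10). Class I heat shock protein Solyc06g076540 had 101, 102 and 145 TPM in Criollo and 5.03, 3.98 and 1.79 TPM in Micro-Tom (log2 fold change 4.65, SE 0.30). Heat shock protein 70 Solyc11g066100 had 50.9, 58.5 and 45.4 TPM in Criollo and 9.57, 10.8 and 11.02 TPM in Micro-Tom (log2 fold change 2.49, SE 0.13). The mitochondrial small heat shock protein Solyc08g078700 had overlapping groups, at 16.8, 19.4 and 13.5 TPM in Criollo and 14.1, 53.6 and 30.2 TPM in Micro-Tom, and its lower call (adjusted p 0.042) was lost with the length offset (adjusted p 0.077) and without Criollo replicate 1 or 3 or Micro-Tom replicate 2 or 3.

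**Figure D4:**
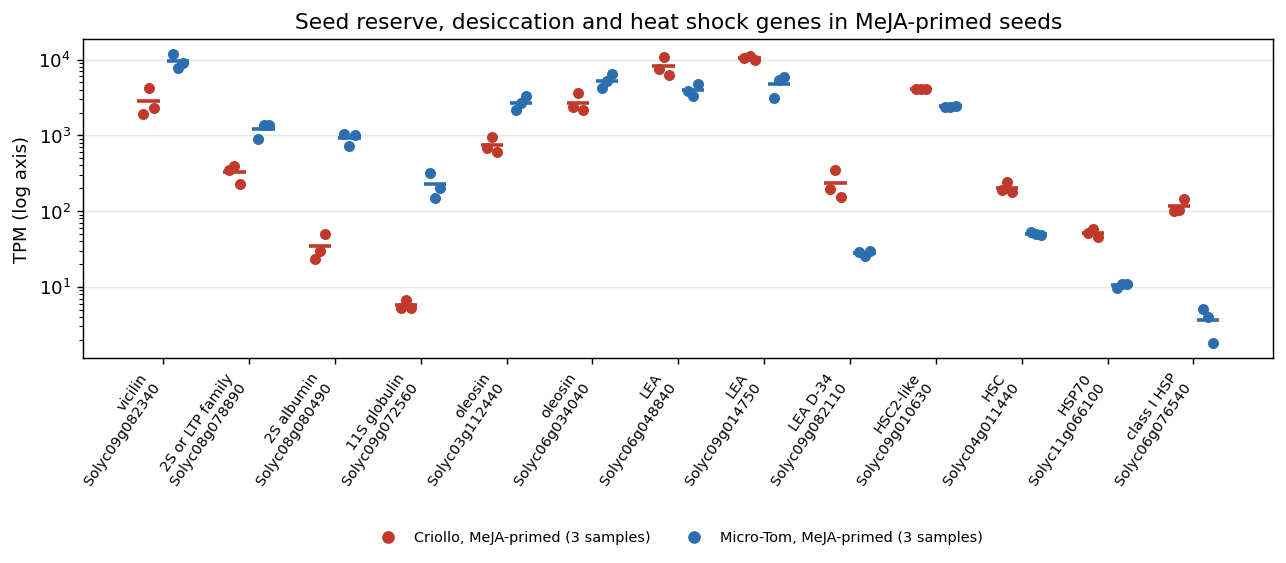
TPM on a log axis of 13 seed reserve, desiccation and heat shock genes in each MeJA-primed sample, with Criollo in red left of Micro-Tom in blue and bars at group means. The storage protein and oleosin genes drawn lie lower in Criollo, and the LEA and heat shock genes drawn lie higher. The LEA list as a whole was not shifted, with 5 higher and 4 lower of 22. Its most abundant member Solyc10g078770 (not called) and the lower Solyc09g090800 are not drawn. Also not drawn are the higher storage gene Solyc02g085590 and the lower heat shock gene Solyc08g078700.

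Over all 306 tested genes whose proteins were detected in exudates, 116 were lower (37.9%), 56 higher (18.3%) and 134 not called, with a median of -0.17. Among all annotated genes 30.8% were lower and 24.4% higher. Of 15 ribosomal protein genes among the exudate genes, 5 were higher and 4 lower (3 to 6 and 2 to 4 with a library left out), from 0.97 (SE 0.17) for L19 (Solyc06g009210) to -0.87 (SE 0.13) for acidic protein P3 (Solyc07g009330). The most abundant, acidic protein P0 (Solyc05g054580), was not called. Of 8 tested proteases, 4 were lower and none higher. The aspartyl protease Solyc01g098770 had 252, 298 and 277 TPM in Criollo and 457, 567 and 687 TPM in Micro-Tom (log2 fold change -1.19, SE 0.17), and the subtilisin-like Solyc07g041970 had a log2 fold change of -0.73 (SE 0.11).

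Cell wall loosening enzymes, some of which act when the endosperm weakens before the root emerges, counted 7 lower and 1 higher of 15. The most abundant, a xyloglucan endotransglucosylase/hydrolase (Solyc07g006870), had 824, 880.4 and 690.3 TPM in Criollo and 1041, 1249 and 1266 TPM in Micro-Tom (log2 fold change -0.68, SE 0.14). Xyloglucan endotransglucosylase-hydrolase 6 (Solyc11g066270) had 2 counts over the Criollo libraries and 96 over the Micro-Tom libraries, a ratio of 49.8 for Micro-Tom over Criollo with a 95% counting interval of 13.4 to 417. Pectinesterase Solyc02g080220 was higher, at 14.9, 8.49 and 15.98 TPM in Criollo and 6.21, 7.96 and 4.52 TPM in Micro-Tom (log2 fold change 1.15, SE 0.24). None of the 3 endo-beta-mannanase genes was called, with Solyc10g008300 at 34.6, 34.4 and 38.9 TPM in Criollo and 39.9, 46.8 and 32.9 TPM in Micro-Tom.

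Of the 3 phenylalanine ammonia-lyases, the entry enzymes of phenylpropanoid synthesis, 1 was higher and 1 lower. Solyc09g007920 had 199.9, 247 and 223 TPM in Criollo and 108, 73.9 and 40.9 TPM in Micro-Tom (log2 fold change 1.72, SE 0.28). Solyc09g007900 had 72.2, 84.0 and 81.6 TPM in Criollo and 257, 170.3 and 87.0 TPM in Micro-Tom (log2 fold change -0.98, SE 0.31, edgeR adjusted p = 0.028). That lower call was lost without Criollo replicate 1 or 3 or Micro-Tom replicate 1 or 2, with the replicate block and in both limma fits on TPM. Micro-Tom replicates were widely spread in both copies. Solyc09g007910 was not called (log2 fold change 1.18, SE 0.45, edgeR adjusted p = 0.056), and was called higher without Micro-Tom replicate 1.

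The largest log2 fold changes among annotated genes over 5 CPM were in genes of varied function. A patatin gene (Solyc08g006860), of a lipid acyl hydrolase family, had 402, 435 and 396 TPM in Criollo and 0.063, 0.063 and 0 TPM in Micro-Tom. Micro-Tom had 2 counts in all, and the ratio of Criollo over Micro-Tom was 9665 with a 95% counting interval of 2675 to 79816. The conserved protein UCP012943 (Solyc03g093340) had 93.7, 99.3 and 93.7 TPM in Criollo and no counts in Micro-Tom, so it was at least 1563-fold higher with Micro-Tom set to the floor of 3 counts for its libraries together. GIGANTEA (Solyc12g056650), a clock protein, had 25.3, 19.1 and 22.96 TPM in Criollo and 1.44, 2.34 and 1.42 TPM in Micro-Tom (log2 fold change 3.82, SE 0.19). Neighbouring acyltransferase genes of the HXXXD type were higher together. Solyc05g052670 had 90.02, 123 and 93.5 TPM in Criollo and 4.80, 5.37 and 3.95 TPM in Micro-Tom (log2 fold change 4.43, SE 0.18), and Solyc05g052680 had a log2 fold change of 3.89 (SE 0.29). Also higher were a cyclic phosphodiesterase gene (Solyc03g005930, log2 fold change 4.42, SE 0.34) and an elongation factor gene (Solyc11g030380, log2 fold change 4.01, SE 0.13).

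At the other end, alcohol dehydrogenase-2 (Solyc09g025210), a fermentation enzyme, had 13.3, 19.9 and 12.2 TPM in Criollo and 752, 489.9 and 472 TPM in Micro-Tom (log2 fold change -5.05, SE 0.28). The endoribonuclease L-PSP gene Solyc07g064600 had 5.86, 31.7 and 5.47 TPM in Criollo and 339.8, 613 and 731 TPM in Micro-Tom (log2 fold change -5.50, SE 0.66). In mock-primed seeds it did not exceed 0.108 TPM in either genotype. A glycosyltransferase (Solyc12g042600) had 0.403, 0.693 and 0.465 TPM in Criollo and 72.97, 69.4 and 52.1 TPM in Micro-Tom (log2 fold change -6.88, SE 0.21). The cytochrome P450 gene Solyc04g078325 had 0.220, 0.264 and 0.214 TPM in Criollo and 14.1, 10.2 and 8.87 TPM in Micro-Tom (log2 fold change -5.60, SE 0.28). The glycosyltransferase-8 domain gene Solyc06g060710 had a log2 fold change of -5.67 (SE 0.30).

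In absolute level, 2-oxoglutarate-dependent dioxygenase 2 (Solyc07g043420) stood among the largest gains, with 7686, 5245 and 8171 TPM in Criollo and 1727, 1771 and 1887 TPM in Micro-Tom (log2 fold change 2.03, SE 0.16). Solyc02g085320, without an annotation in the study's supplementary text, had 2919, 1821 and 2032 TPM in Criollo and 350.2, 486 and 469 TPM in Micro-Tom. Solyc07g065840, likewise without an annotation there, had a log2 fold change of 1.31 (SE 0.13). Solyc10g075110, also without an annotation there, had 513, 406 and 501 TPM in Criollo and 4459, 5311 and 4312 TPM in Micro-Tom (log2 fold change -3.26, SE 0.11). Solyc06g060840 had a log2 fold change of -1.90 (SE 0.22).

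Secondary metabolism genes that the study had listed as induced by MeJA in these libraries, again no independent sample, were mixed. Of 10 glycosyltransferases 2 were higher (1 when any library but Criollo replicate 2 was left out) and 4 lower, of 6 acyltransferases 1 was higher and 1 lower (2 lower without Criollo replicate 2), of 10 oxygenases 4 were higher and 5 lower, and of 4 ABCC transporters 1 was higher and 2 lower. Glycosyltransferase Solyc06g072880 had 22.1, 17.49 and 28.3 TPM in Criollo and 73.5, 70.7 and 69.9 TPM in Micro-Tom (log2 fold change -1.63, SE 0.15). The acyltransferase Solyc04g079720 had 69.0, 66.1 and 67.5 TPM in Criollo and 21.6, 23.7 and 22.5 TPM in Micro-Tom (log2 fold change 1.60, SE 0.08). ABC transporter C family member 8 (Solyc12g044820) had 14.7, 11.2 and 13.7 TPM in Criollo and 5.29, 5.22 and 4.53 TPM in Micro-Tom (log2 fold change 1.49, SE 0.11), from at most 0.155 TPM in every mock-primed sample. Geraniol 8-hydroxylase (Solyc02g090350), acyltransferase Solyc02g093180 and R2R3MYB transcription factor 45 (Solyc12g099140) were not called, with log2 fold changes of -0.53 (SE 0.24), -0.36 (SE 0.15) and 0.44 (SE 0.54).

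Green tissue genes were measured as a check on the sample. Their summed level over 6 genes was 14.03, 12.7 and 13.6 TPM in Criollo and 9.76, 9.94 and 9.79 TPM in Micro-Tom, against LEA sums of 38587 TPM or more in Criollo and 30169 TPM or more in Micro-Tom. Of 4 tested, 2 were higher and 1 lower. Endosperm and embryo were extracted together, and differences in their shares of the RNA cannot be told apart from differences within a tissue.

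Some genes had reads in a single genotype. With at least 10 counts in each library of a genotype and none in the other, 42 genes were found in Criollo and 24 in Micro-Tom. Of the 42, 31 also had no count in mock-primed Micro-Tom and 36 had at least 10 counts in each mock-primed Criollo library. Of the 24, 13 had no count in mock-primed Criollo and 18 had at least 10 in each mock-primed Micro-Tom library. Stupicke had no count of 10 of the 42 and of 8 of the 24. Chromosome 4, with 1592 of the 18742 tested genes, held 14 of the 42, more than any other chromosome, and 2 of the 24. Several of the 14 were close in the gene numbering, among them Solyc04g079010, Solyc04g079020 and Solyc04g079050 and the run described next.

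A run of such genes lay at Solyc04g081650 to Solyc04g081710. Solyc04g081650 had 679, 738 and 436 counts in the Criollo libraries and 0 in each Micro-Tom library, and it was at least 595-fold higher with Micro-Tom set to the floor of 3 counts for its libraries together. Solyc04g081710 had 87, 90 and 98 counts in Criollo and 0 in each Micro-Tom library. In this interval 5 of 7 genes of the table had reads in Criollo only, and the same 5 had none in mock-primed Micro-Tom. Next to the run, Solyc04g081720 was lower in Criollo, with 2, 4 and 4 counts against 52, 40 and 73 in Micro-Tom. Further on, Solyc04g081730 was read in both genotypes, with 4532, 4242 and 4616 counts in Criollo and 3026, 3442 and 2858 counts in Micro-Tom. Reads were mapped to a single reference transcriptome, and whether such genes are deleted, divergent in sequence or silent in the other genotype was not tested.

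Mock-primed libraries, none of which enters the comparison above, gave a second set of values for the genotype difference. Genotype and seed lot cannot be told apart in them either. Their effective length ratio, shortest over longest eighth, also ran with the genotype, at 0.917 to 0.933 in Criollo and 1.15 to 1.21 in Micro-Tom. The mock-primed tests used no length offset, and its part in the agreement below was not tested. Mock-primed Micro-Tom replicate 3 stood apart, correlating at 0.947 and 0.938 with replicates 1 and 2, which correlated at 0.994 with each other, so values are given with and without it. With it, 6630 of 18905 genes were called (35.1%), and without it 10777 of 19293, with 27.6% higher and 28.3% lower in Criollo. Of the genes higher in MeJA-primed Criollo, 98.6% of the 4222 that could be tested in 5 mock-primed libraries had the same sign there and 85.3% were called in the same direction. Of the genes lower, 97.9% of 4365 had the same sign and 85.7% were called. With all 6 mock-primed libraries, 95.8% and 95.9% had the same sign, and 55.4% and 66.2% were called in the same direction.

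**Figure D5:**
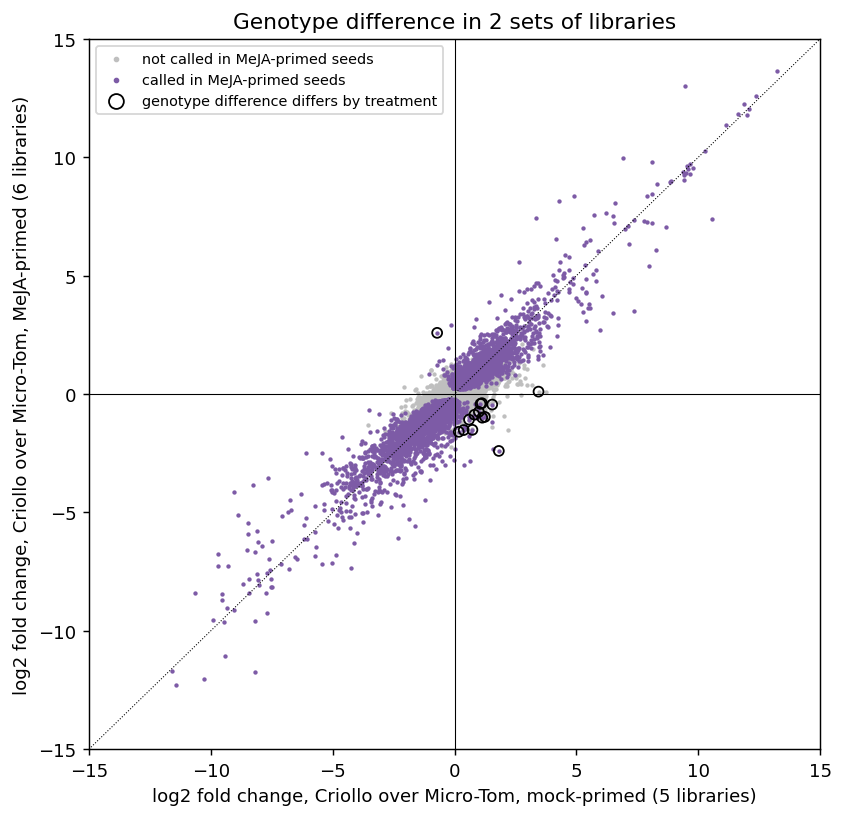
Log2 fold change, Criollo over Micro-Tom, of 18471 genes in MeJA-primed seeds (vertical axis, 6 libraries) against mock-primed seeds (horizontal axis, 5 libraries without Micro-Tom replicate 3). Purple points are called in MeJA-primed seeds, and 14 circled genes had a genotype difference that differed between treatments. Most called genes lie near the dotted line of equal difference.

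Among the named groups, defensins, JAZ, storage and heat shock genes had medians of the same sign in mock-primed seeds, whereas ABCC transporters, ribosomal proteins and the chitinase and PR list had medians of the other sign. So did ethylene-responsive transcription factors (0.38 without Micro-Tom replicate 3), glycosyltransferases (0.42), acyltransferases (0.19) and auxin response factors (0.22). In MeJA-primed seeds the medians of these last lists were small, from -0.0653 to -0.000529. SlPDF2.3 had 1.76, 0.793 and 1.34 TPM in mock-primed Criollo and 37.8, 32.8 and 47.2 TPM in mock-primed Micro-Tom (log2 fold change -4.44 without Micro-Tom replicate 3). All 4 JAZ genes that could be tested were lower in mock-primed Criollo, JAZ3 with 67.2, 83.0 and 60.3 TPM against 152, 145 and 229.9 TPM in Micro-Tom. Storage protein genes counted 6 lower and 2 higher of 9, with and without Micro-Tom replicate 3. Heat shock genes counted 13 higher and 1 lower of 17 without that library, and 11 higher and 1 lower with it. LEA genes counted 12 higher and 3 lower of 22 without it, and 7 higher and 3 lower with it. Ribosomal protein genes counted 4 higher and 8 lower of 15 without it (median log2 fold change -0.29), and 0 higher and 2 lower with it. ABCC transporters counted 1 higher and 0 lower of 4 without it (median 0.19), and 0 of either with it. The chitinase and PR list counted 5 higher and 5 lower of 16 in both cases (median 0.05 without it). Of the proteinase inhibitor list only 4 of 11 genes had enough counts to be tested there, and 1 was lower in both cases.

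Whether the genotype difference itself depended on MeJA was tested as an interaction over 12 libraries. Of 19599 genes 15 were called (0.0765%), 14 with a more negative genotype difference after MeJA, and 1270 had an unadjusted p below 0.05. Without mock-primed Micro-Tom replicate 3, 34 of 19893 were called (0.171%). Methylsterol monooxygenase 1-2 (Solyc01g091320) was the exception in sign. It had 36.9, 16.8 and 35.2 TPM in MeJA-primed Criollo, against 3.62, 5.30 and 4.14 TPM in MeJA-primed Micro-Tom, 2.64, 2.96 and 1.55 TPM in mock-primed Criollo and 3.11, 3.44 and 3.94 TPM in mock-primed Micro-Tom. TOMATO WOUND-INDUCED 1 (Solyc01g107820) had 22.4, 35.3 and 20.1 TPM in MeJA-primed Criollo and 81.3, 90.5 and 62.5 TPM in MeJA-primed Micro-Tom. In mock-primed seeds it had 15.6, 14.1 and 16.5 TPM in Criollo and 9.70, 8.60 and 5.78 TPM in Micro-Tom. Both were chosen from the 15 after their values were seen. None of the JAZ, defensin, storage or heat shock genes was among the 15.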

How the data were processed

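RNA was sequenced by the authors as paired reads, and Salmon 1.2 estimated transcript abundance against the tomato reference transcriptome, genome version SL4.0 with annotation ITAG4.0. The deposited tables hold estimated counts and TPM for 33976 transcripts in each library. TPM values are the authors' length and depth normalisation. Reads shared by near-identical genes were divided between them by the quantification, so values of close paralogs are uncertain.

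Expected counts were rounded to whole numbers and tested with the quasi-likelihood test of edgeR 4.0.16 (R 4.3.3) after TMM normalisation and filterByExpr, with Benjamini-Hochberg adjustment at 0.05 and no minimum fold. The 3 Criollo and 3 Micro-Tom libraries alone entered the comparison, and the interaction used 12 libraries. Library totals were 18807931 to 20406693 counts. Counting intervals cover counting error only. On simulated counts for this comparison over 18742 genes, 180 of 200 genes changed by 1.5 on the log2 scale were recovered, with 14 false calls. No other genes were changed there, whereas in the data 46.7% were called, with a median difference of 0.78. The recovery and false calls therefore do not describe the real comparison. Alternatives used DESeq2 1.42.0, limma 3.58.1 on log2(TPM + 1) and log2(TPM + 0.1), other filters and scalings, and single libraries left out.

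Named genes were the 8 annotated, called and non-overlapping genes over 5 CPM with the largest log2 fold change in each direction, the 5 with the largest TPM difference in each direction, up to 4 extremes of each list and all members of small lists, genes the study named, and the 3 strongest interactions. Other list members in the text were chosen after their values were seen. The comparison and gene lists were chosen with earlier results of these data known. Annotations came from the study's supplementary text for 2656 loci. None of the identifiers was found in the RefSeq gene table, and no gene coordinates or sequences were used.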

Additional observations from a re-analysis of the deposited data

Results flagged for a closer look

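The difference between the genotypes itself differed between MeJA-primed and mock-primed seeds for 15 genes in edgeR, by the interaction term over 12 libraries. Cinnamyl alcohol dehydrogenase (Solyc11g011330), of lignin and phenylpropanoid metabolism, had 127, 93.9 and 153 TPM in MeJA-primed Criollo and 163, 130.5 and 101 TPM in MeJA-primed Micro-Tom. In mock-primed seeds it had 119, 153 and 84.1 TPM in Criollo and 10.9, 12.8 and 6.99 TPM in Micro-Tom. The genotype log2 difference after MeJA minus that after mock was -3.41 (edgeR adjusted p = 0.0056), and the Micro-Tom mock-primed samples were the low ones. The corresponding difference was -1.57 for the stress up-regulated Nod 19 gene Solyc12g042380 (edgeR adjusted p = 0.0071). It was -2.32 for UDP-glycosyltransferase 73C4 (Solyc10g085880, edgeR adjusted p = 0.017) and -2.15 for ABC transporter C family member 10 (Solyc03g007530, edgeR adjusted p = 0.022).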

How the results depend on the processing

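No gene was called in the opposite direction under any alternative to the 6-library comparison. A minimum log2 fold change of 1 left 3186 called genes, 1313 higher and 1873 lower in Criollo. The other scalings, filters and tools gave between 8122 and 9104 called genes. A fit over all 18 libraries gave 7784, a fit over 17 without mock-primed Micro-Tom replicate 3 gave 10380, and leaving out a library gave 6543 to 8513, lowest without Criollo replicate 1. Over 17 alternatives, 119 genes in the text or under the naming rule gave 2023 values. Of these, 1871 had the same outcome as the main comparison, called or not called. A call was lost in 146, gained in 6 and reversed in 0. The replicate numbers did not pair the samples, with correlations of same-numbered deviations of -0.16, -0.16 and -0.33, and with the replicate number as a replicate block 7030 genes were called, 3363 higher and 3667 lower. The 15 interaction calls became 34 without mock-primed Micro-Tom replicate 3, 101 with DESeq2 and 3 with the replicate block, and leaving out a library gave 1 to 34. The causes were not tested. The mock-primed count of 6630 became 10777 without Micro-Tom replicate 3. The 66 genes with reads in a single genotype became 119 at a minimum of 5 counts and 31 at a minimum of 30. With 3 samples a group, p-values measure the spread between dishes of seeds.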
